A study of Homo sapiens with 4 samples.

Results

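SAPCD2 and 9 genes of the spindle orientation and PAR polarity machinery were examined in SK-N-BE(2) cells after SAPCD2-knockdown. The 10 genes (SAPCD2, GPSM2, GPSM1, NUMA1, INSC, PARD3, PARD6A, PARD6B, PRKCI and GNAI3) were chosen for what their products do and were matched by symbol among the 64252 genes of the count table, of which 9 passed the filter on low counts and were tested. SAPCD2 itself kept 42.7% and 63.3% of its control level in the knockdown libraries. Among its partners GPSM1 rose 1.57-fold and NUMA1 fell to 0.794 of its control level. Both calls lay close to the threshold (edgeR, adjusted p = 0.0437 and 0.0469) and were lost without the filter on low counts. The log2 fold change of GPSM1 was 0.65, and 0.29 with a correction for GC content and transcript length. GPSM2, GNAI3 and the 4 PAR complex genes PARD3, PARD6A, PARD6B and PRKCI did not pass the test, and INSC was close to undetected.

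SK-N-BE(2) is a human neuroblastoma cell line with amplified MYCN. RNA-seq was conducted on cells stably carrying scrambled shRNA (sh-Scb, the control group, 2 libraries) or sh-SAPCD2 (the knockdown group, 2 libraries). Per the study's methods the shRNAs were delivered by lentivirus and carrying cells were selected with puromycin, so that each group is a selected population that had lived with the hairpin. The labels say neither which hairpin the libraries carried (a heatmap of the RNA-seq in the study names sh-SAPCD2 #1) nor whether the 2 libraries of a group came from separate cultures, so p-values measure only the spread between these libraries, which may be technical.

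When a cell divides, cortical protein complexes decide where the mitotic spindle points. The GTP-binding subunit Gαi (GNAI3 among others) sits in the membrane, LGN (GPSM2) or its paralog AGS3 (GPSM1) binds it through GoLoco motifs, and NuMA (NUMA1) links LGN to the motor dynein, which pulls on astral microtubules. The PAR complex of PAR3 (PARD3), PAR6 (PARD6A, PARD6B) and atypical protein kinase C (PRKCI) marks the apical cortex, and Inscuteable (INSC) can join PAR3 to LGN. SAPCD2, which carries a suppressor APC domain, is known from epithelia and the retina as a binding partner of LGN that bears on whether a division lies in the plane of the tissue or at a right angle to it, and it is made mainly in dividing cells. RNA levels say nothing about where these proteins sit or how the spindle points.

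The hairpins are shown because they define the knockdown and the seed that was looked for in the other members. SAPCD2 (ENSG00000186193, chromosome 9, minus strand, 137062127 to 137070557) has an annotated transcript of 3814 bp in hg38, with 6 exons and 1182 bp of coding sequence. In the lines below the target sequence is in the sense of the mRNA, and capitals mark the 7 bases that pair with bases 2 to 8 (the seed) of the guide strand.
sh-SAPCD2 #1 target: acctctggattccACCTTCAt
sh-SAPCD2 #1 guide: aTGAAGGTggaatccagaggt
sh-SAPCD2 #2 target: gctgcagggtttgGAGATGAt
The target of sh-SAPCD2 #1 lies in the coding part of exon 6, at chr9:137064663-137064683 on the minus strand, and was found in 0 other annotated principal transcripts of 62700. The target of sh-SAPCD2 #2 lies in the coding part of exon 3, at chr9:137065607-137065627, and was also found in 2 other principal transcripts.

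The libraries held 25347900 to 31850997 counts, and 3 counts, taken as the least that this depth can show, corresponded to 0.0955 to 0.119 CPM (counts relative to library size, with the TMM factors of edgeR). The knockdown libraries differed from each other along the GC content of the transcripts. From replicate 1 to replicate 2 of sh-SAPCD2 the median difference in log2 CPM was −0.22 over 6485 tested genes under 45% GC, 0.08 over 8389 genes from 45% to 60%, and 0.45 over 2593 genes of 60% or more, while the same medians between the control libraries were 0.01, −0.01 and −0.01. Values corrected for GC content and transcript length, and values without either knockdown library, are therefore given below for the genes they move. Of the 18779 genes tested, 12.4% passed edgeR's quasi-likelihood test at an adjusted p under 0.05 as higher and 12.5% as lower in SAPCD2-knockdown cells, with a median log2 fold change of 0.02 over all genes. The change between the groups also went with GC content. Its median was −0.09 under 45% GC, 0.04 from 45% to 60% and 0.30 at 60% or more.

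SAPCD2 had 83.6 and 82.2 CPM in the control libraries (2308 and 2263 counts) and 35.4 and 52.5 CPM in the knockdown libraries (895 and 1648 counts). Both knockdown libraries lay under both control libraries, and the knockdown libraries differed more from each other than the control libraries did. The log2 fold change was −0.91 with an SE of 0.193 (95% interval −1.38 to −0.45) and an adjusted p of 0.0206 in edgeR's quasi-likelihood test, a fall to 0.53 of the control level. The SAPCD2 transcript has a GC content of 66.5%, and its level was higher by 0.57 on the log2 scale in knockdown replicate 2 than in replicate 1, near the 0.45 of all GC-rich genes. With the correction for GC content and length the log2 fold change was −1.27 (edgeR, adjusted p = 2.72e-05), it was −1.23 without knockdown replicate 2 and −0.67 without knockdown replicate 1, and without the filter on low counts the adjusted p was 0.0749. SAPCD2 RNA was thus lower in each knockdown library but far from absent. In bulk RNA, fewer cells with a transcript and less transcript per cell cannot be told apart.

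Near-identical copies and overlapping genes of SAPCD2 were assigned next to no counts. How reads that fit several places were counted is not given in the sources used here, so these counts cannot show whether SAPCD2 lost reads. The pseudogenes SAPCD2P1, SAPCD2P2 and SAPCD2P4 had 0 counts in every library, and SAPCD2P3 had 0 and 4 counts with sh-Scb and 2 and 0 in the knockdown group. The 2 long noncoding RNAs annotated opposite SAPCD2 had 0 counts in every library.

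**Figure D1:**
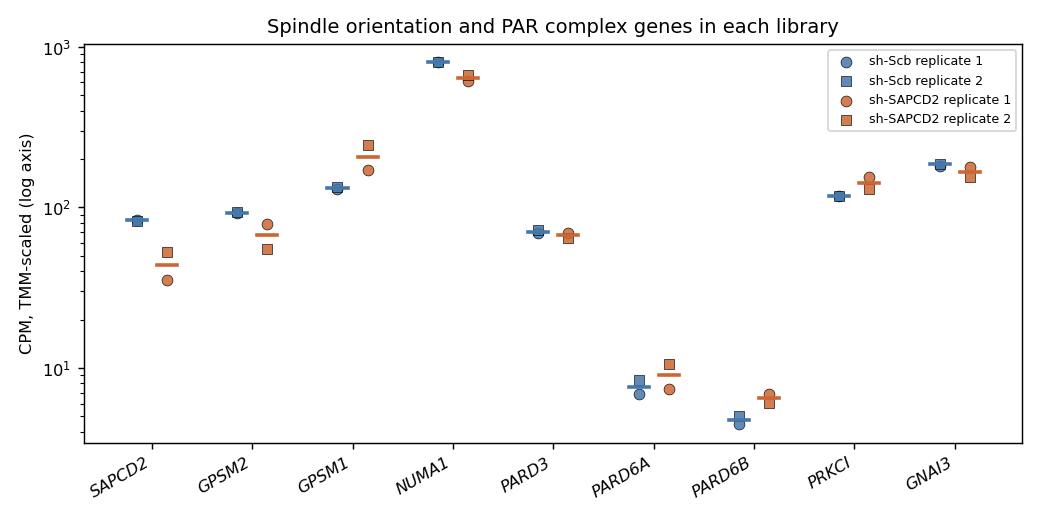
Level of each tested gene in each library, in TMM-scaled CPM on a log axis, with sh-Scb in blue and sh-SAPCD2 in orange, replicate 1 as circles and replicate 2 as squares. Lines mark the mean of the 2 libraries, and INSC, at 2 counts in all, is not drawn. SAPCD2 and GPSM2 sit lower and GPSM1 higher in both knockdown libraries, and the knockdown libraries lie further apart than the control libraries.

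Of the 9 members other than SAPCD2, 8 were tested, 1 (GPSM1) rose, 1 (NUMA1) fell and 6 did not pass, against 12.4% and 12.5% of all genes tested. The groups did not overlap for 6 of the 8, against 67% of all genes tested, with 3 higher and 3 lower in the knockdown group, against 33.5% and 33.4%. These shares are close to those of all genes and mark nothing particular to the members. Their absolute log2 fold changes, from 0.08 to 0.65, all lay under the study's threshold of 1 for a differentially expressed gene (DEG), which 4.69% of all genes tested passed as higher and 5.15% as lower.

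GPSM2 (ENSG00000121957, chromosome 1, plus strand, 108875350 to 108934545) encodes LGN, the adaptor between Gαi and NuMA and the direct partner of SAPCD2. It had 91.8 and 93.7 CPM in the control group and 79.2 and 54.7 CPM in the knockdown group, so the groups did not overlap but knockdown replicate 1 stood closer to the controls. Its log2 fold change of −0.47 (SE 0.182, 95% interval −0.91 to −0.03) did not pass (edgeR, adjusted p = 0.109). It passed with DESeq2 (adjusted p = 0.0475), in the edgeR fit with the replicate number as a block (0.0267) and with the correction for GC content and length (−0.40, 0.0122). With that correction and the block together it passed as well (0.00528). Without knockdown replicate 1 it was −0.77 and without knockdown replicate 2 −0.23. CLCC1, annotated on the opposite strand over part of GPSM2, held 1257 and 1340 counts with sh-Scb and 1373 and 1562 in the knockdown group, against 2536, 2577, 2004 and 1719 for GPSM2, and since the strand setting of the counting is not given in the sources used here, reads in the shared stretch may have been counted for either gene.

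GPSM1 (ENSG00000160360, chromosome 9, plus strand, 136327476 to 136359605) encodes AGS3, the paralog of LGN with the same GoLoco motifs. It had 131.0 and 133.7 CPM in the control libraries and 169.8 and 244.7 CPM in the knockdown libraries. Both knockdown libraries were above both control libraries, and replicate 2 was far above replicate 1. The log2 fold change was 0.65 (SE 0.177, 95% interval 0.22 to 1.08) with an adjusted p of 0.0437 in edgeR's quasi-likelihood test. GPSM1 is the most GC-rich of the 10 genes, at 66.8%, and its knockdown libraries differed by 0.53 on the log2 scale. All tested genes of 60% GC or more had a median log2 fold change of 0.30. Its log2 fold change was 0.29 with the correction for GC content and length (edgeR, adjusted p = 0.00508), 0.36 without knockdown replicate 2 and 0.88 without knockdown replicate 1. It did not pass without control replicate 1 (0.63, adjusted p = 0.14), without control replicate 2 (0.66, adjusted p = 0.115) or without the filter on low counts (adjusted p = 0.131). DNLZ, on the opposite strand over part of GPSM1, held 113 and 102 counts with sh-Scb and 82 and 288 in the knockdown group, 3.03% of the counts of GPSM1. The direction of GPSM1 was the same in 12 of 12 settings, while its size was not. These settings refit the same libraries and are not independent of each other.

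NUMA1 (ENSG00000137497, chromosome 11, minus strand, 72002864 to 72080693) encodes NuMA, which recruits dynein to the cortex in mitosis and focuses the spindle poles. With 802.6 and 801.0 CPM in the control group and 610.4 and 662.5 CPM in the knockdown group it was the most abundant of the 10 genes in every library. The knockdown libraries stood clear of the control libraries. NUMA1 fell by 0.33 on the log2 scale, with an SE of 0.0935, a 95% interval of −0.56 to −0.11 and an adjusted p of 0.0469 in edgeR's quasi-likelihood test. The call was lost without control replicate 1 (adjusted p = 0.472), without control replicate 2 (0.471), without the filter on low counts (0.0872) and with the replicate block (0.11), and it held with DESeq2 (0.0444) and with the correction for GC content and length (−0.51, adjusted p = 0.000698). Of the genes that overlap NUMA1, IL18BP held the most counts, 1.74% of those of NUMA1. The fall was of the same direction in 12 of 12 settings, which refit the same libraries, but lay close to the threshold.

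GNAI3 (ENSG00000065135, chromosome 1, plus strand, 109548615 to 109600195), a Gαi subunit that anchors LGN in the membrane, had 182.2 and 187.5 CPM in the control group and 178.2 and 154.0 CPM in the knockdown group. Knockdown replicate 1 was just under the lower control library. The log2 fold change of −0.15 (SE 0.111, 95% interval −0.42 to 0.11) did not pass (edgeR, adjusted p = 0.346). INSC (ENSG00000188487, chromosome 11, plus strand, 15112424 to 15247208), the link between PAR3 and LGN in neural and epidermal progenitors, had 2 counts in control replicate 1 and 0 counts in the other 3 libraries. This is below the 3 counts taken as detectable, so INSC RNA was not detectable in SK-N-BE(2) cells at this depth and no fold change is given.

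**Figure D2:**
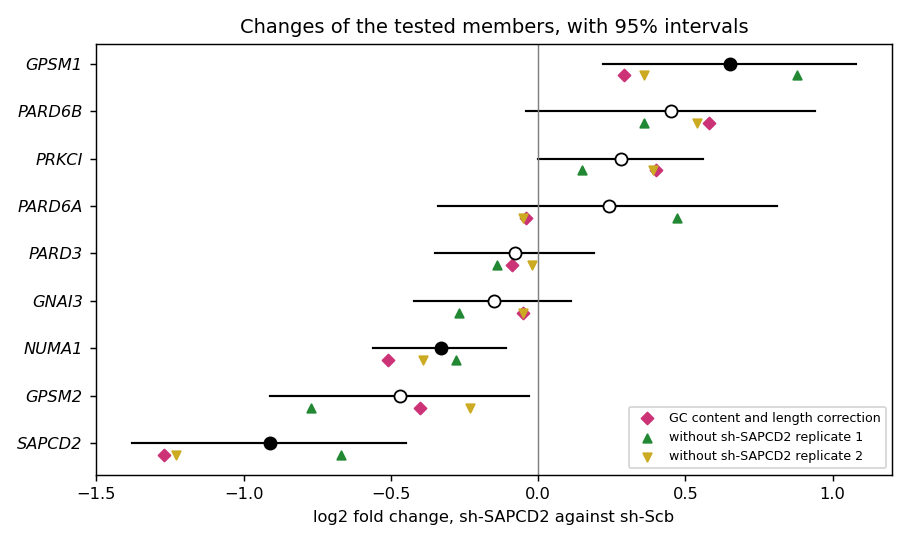
Log2 fold change of each tested gene in SAPCD2-knockdown against control cells, with its 95% interval as a line (n = 2 libraries per group). Filled points passed edgeR's quasi-likelihood test at an adjusted p under 0.05 (SAPCD2, NUMA1 and GPSM1), open points did not, and coloured marks give the value after correction for GC content and length or without either knockdown library. SAPCD2 spans −1.23 to −0.67, GPSM2 −0.77 to −0.23 and GPSM1 0.36 to 0.88 when a knockdown library is left out, and PARD6A changes sign.

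The PAR complex genes did not pass the test in either direction. PARD3 (ENSG00000148498, chromosome 10, minus strand, 34109560 to 34815325), the scaffold of the complex, had 68.9 and 72.4 CPM in the control group and 69.4 and 64.2 CPM in the knockdown group. These ranges overlapped, and its log2 fold change of −0.08 (SE 0.11, adjusted p = 0.619 by edgeR) had a 95% interval of −0.35 to 0.19. PRKCI (ENSG00000163558, chromosome 3, plus strand, 170222424 to 170305977), the kinase of the complex, had 117.1 and 117.3 CPM in the control libraries and 153.6 and 130.9 CPM in the knockdown libraries. Both knockdown libraries of PRKCI were above the controls, at a log2 fold change of 0.28 (SE 0.115, 95% interval −0.00 to 0.56, adjusted p = 0.128 by edgeR). PRKCI passed with the correction for GC content and length (edgeR, 0.40, adjusted p = 0.0012), also with the replicate block added (adjusted p = 0.00153). Its log2 fold change was 0.15 and 0.39 with 1 or the other knockdown library left out. Those fits take their spread from the control libraries and say nothing of the spread in the knockdown group.

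The PAR6 adaptors, which tie the kinase to its GTPase partner Cdc42, were the lowest of the detected members. PARD6A (ENSG00000102981, chromosome 16, plus strand, 67660946 to 67662774) had 6.91 and 8.36 CPM in the control group and 7.35 and 10.6 CPM in the knockdown group. Its groups overlapped, and its log2 fold change of 0.24 (SE 0.236, adjusted p = 0.499 by edgeR) turned to −0.04 with the correction for GC content and length and to −0.05 without knockdown replicate 2, so that no direction can be given. PARD6B (ENSG00000124171, chromosome 20, plus strand, 50731580 to 50756795) had 4.45 and 5.02 CPM (123 and 138 counts) with sh-Scb and 6.87 and 6.08 CPM (174 and 191 counts) with sh-SAPCD2. The groups of PARD6B did not overlap, its log2 fold change was 0.45 (SE 0.2, 95% interval −0.04 to 0.94, adjusted p = 0.15 by edgeR), and it passed in 2 of 12 settings, among them the correction for GC content and length (0.58, adjusted p = 0.0336).

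GC content and the difference between the knockdown libraries went together among the members as among all genes. The 3 genes above 60% GC, SAPCD2, GPSM1 and PARD6A, were higher in knockdown replicate 2 by 0.57, 0.53 and 0.52 on the log2 scale. The 4 genes under 45%, GPSM2, PRKCI, GNAI3 and PARD6B, were lower there by 0.53, 0.23, 0.21 and 0.17. Between the control libraries, SAPCD2 differed by −0.02, GPSM1 by 0.03 and GPSM2 by 0.03, while the low-count PARD6A differed by 0.27.

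**Figure D3:**
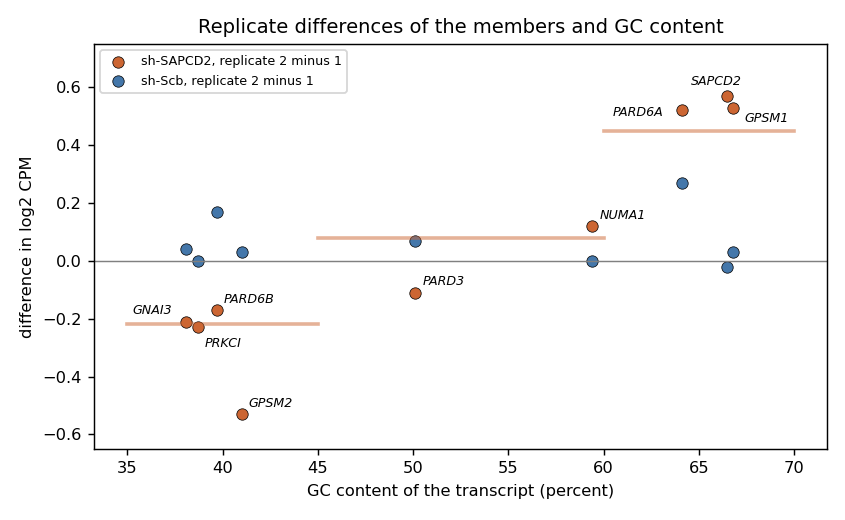
Difference in log2 CPM between replicate 2 and replicate 1 of sh-SAPCD2 (orange) and of sh-Scb (blue) for the 9 tested genes, against the GC content of the transcript in percent. Orange lines give the knockdown median over all tested genes of the same GC class, −0.22, 0.08 and 0.45, and the members above 60% GC lie from 0.52 to 0.57, those under 45% from −0.53 to −0.17.

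Levels were compared between members per kilobase of annotated transcript. In control cells NUMA1 led with 111.4 ± 0.153 CPM per kilobase (mean ± SD, n = 2), followed by GPSM1 with 37.1 ± 0.528, PRKCI with 24 ± 0.0247 and SAPCD2 with 21.7 ± 0.242. GNAI3 with 20.4 ± 0.417, GPSM2 with 13 ± 0.183, PARD3 with 11.8 ± 0.415 and PARD6A with 6.14 ± 0.821 came next, and PARD6B with 1.03 ± 0.0869 was the lowest gene detected. No neighbours in this order overlapped between the control libraries, although SAPCD2 and GNAI3, and likewise GPSM2 and PARD3, were close. In knockdown cells SAPCD2 had 9.27 and 13.8 CPM per kilobase, a range that overlapped those of PARD3 (11.6 and 10.7) and GPSM2 (11.1 and 7.65). When lengths were taken over all annotated exons of a gene instead, SAPCD2 ranked 3 rather than 4 and GPSM2 ranked 8 rather than 6 in the control cells, so the order of the middle genes depends on the length used.

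Several members have a close paralog that can take the same place, and the ratio of the pair within a library does not depend on its depth. The ratio of GPSM2 to GPSM1, in CPM per kilobase, was 0.349 and 0.349 in the control libraries and 0.233 and 0.112 in the knockdown libraries. AGS3 transcripts thus outnumbered LGN transcripts in every library, and more so in both knockdown libraries. The difference in the log2 ratio was −1.12, and it was −1.65 without knockdown replicate 1 and −0.59 without knockdown replicate 2. This pair joins a GC-rich gene to a GC-poor one, and after the correction for GC content and length the log2 fold changes of GPSM2 (−0.40) and GPSM1 (0.29) were still opposite. With 2 libraries against 2, the two-sided exact permutation test cannot give a p below 0.33, which was its value here.

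The kinase pair shifted most. PRKCI stood at 5.03 and 5.2 times PRKCZ, the other atypical protein kinase C, in the control libraries and at 2.19 and 1.47 times PRKCZ in the knockdown libraries. The fall of this ratio, −1.51 on the log2 scale (exact permutation p = 0.33, the smallest possible), came with a rise of PRKCZ rather than a fall of PRKCI. PRKCZ had 11.3 and 10.9 CPM in the control group and 34.2 and 43.3 CPM in the knockdown group, a log2 fold change of 1.80 (SE 0.166) with an adjusted p of 0.00297 in edgeR's quasi-likelihood test. Other genes are annotated on the opposite strand where they overlap PRKCZ. Their counts were not examined, and the strand setting of the counting is not given in the sources used here. This pair also joins a GC-poor gene (PRKCI, 38.7%) to a GC-rich one (PRKCZ, 60.3%). With the correction for GC content and length the log2 fold changes were 0.40 for PRKCI and 1.64 for PRKCZ, closer together than without it. GNAI3 stood at 0.725 and 0.803 times GNAI2 in the control libraries and at 1.4 and 0.878 times GNAI2 in the knockdown libraries, a difference of 0.54 on the log2 scale (exact permutation p = 0.33), which was 0.20 without knockdown replicate 1 and 0.88 without knockdown replicate 2. The ratio of PARD6B to PARD6A (0.176 and 0.164 against 0.254 and 0.157) and that of PARD3 to PARD3B (9.28 and 9.99 against 7.89 and 9.68) overlapped between the groups, and both differences changed sign without knockdown replicate 1.

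**Figure D4:**
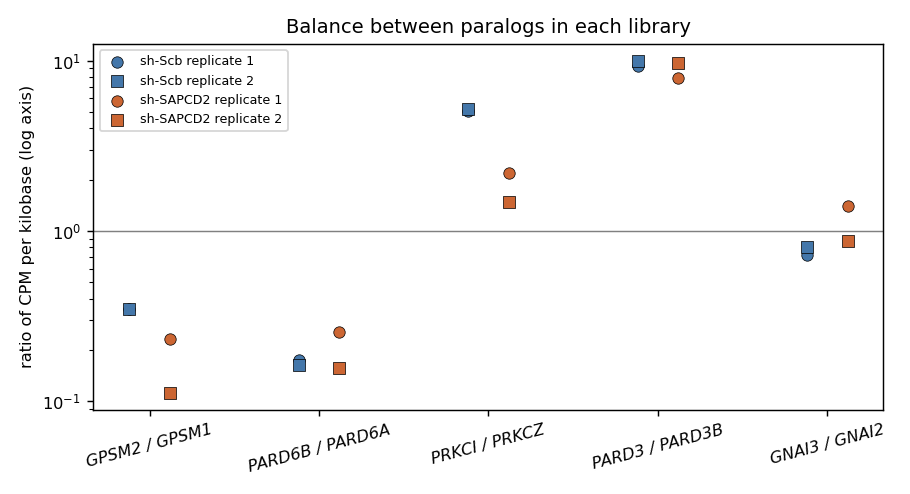
Ratio of CPM per kilobase of 5 members to a paralog, in each library, on a log axis, with the grey line at equal levels. The ratio of PRKCI to PRKCZ falls from above 5 to 2.19 and 1.47, and that of GPSM2 to GPSM1 from 0.349 to 0.233 and 0.112, while the ratios for PARD6 and PARD3 overlap between the groups.

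The wider machinery was described by 5 lists of other genes, 90 in all, of which 84 were tested. Of these 12 rose and 18 fell, against 12.4% and 12.5% of all genes tested, with a median log2 fold change of 0.01 (0.02 over all genes). With the correction for GC content and length 24 rose and 23 fell. That fit also called more of all genes, 3992 higher and 3441 lower of 17467, so its counts do not stand against the shares above. Over all 18779 genes the replicate block called 2860 higher and 2701 lower, and DESeq2 2588 and 2334. Both list counts were smaller with either control library left out and larger with either knockdown library left out. The number of all genes called changed with the library left out as well.

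Among 9 Gα subunits and their regulators, 8 were tested, 2 rose and 2 fell, against 12.4% and 12.5% of all genes tested. With the correction for GC content and length 3 rose and 2 fell, where 3992 and 3441 of all 17467 genes did. More rose with either knockdown library left out. RGS14, a GoLoco protein that binds Gαi as LGN does, had 9.41 and 8.54 CPM in the control group and 39.6 and 49 CPM in the knockdown group. Its 4.94-fold rise (log2 fold change 2.30, SE 0.166, adjusted p = 0.00201 by edgeR) stood far outside the spread of either group. GNAI2, the Gαi subunit next to GNAI3, had 61.6 and 57.3 CPM against 31.1 and 43 CPM (−0.68, adjusted p = 0.0366 by edgeR). GNAO1, the neuronal Gαo subunit, fell less (−0.35, adjusted p = 0.04) and GNAI1 rose (0.36, adjusted p = 0.0496), both close to the threshold. Without control replicate 1 or 2, RGS14 alone of these 4 still passed, and without the filter on low counts it was also the only one to pass. The detected Gαi subunits thus differed in direction, with GNAI2 lower, GNAI1 higher and GNAI3 not passing, although GNAI1 lost its call with DESeq2 (adjusted p = 0.0605) and with the replicate block (0.109).

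Of 23 PAR, Crumbs and Scribble polarity genes besides the members, 21 were tested, 3 rose and 3 fell, near the 12.4% and 12.5% of all genes tested. With the correction for GC content and length the counts were 6 and 3, where 3992 and 3441 of all 17467 genes passed. With the replicate block they were 6 and 3, where 2860 and 2701 of all 18779 genes passed. They also moved with the library left out, as the counts over all genes did. PRKCZ, described above, had the smallest p. TIAM1, an exchange factor for Rac that binds PAR3, went from 85.4 and 76.2 CPM to 148.2 and 140.0 CPM (0.83, adjusted p = 0.00579 by edgeR), and LIN7A, a scaffold of the Crumbs complex, from 1.63 and 2.11 CPM to 5.89 and 3.63 CPM (1.34, adjusted p = 0.0304). LLGL2, a Lethal giant larvae protein that atypical protein kinase C phosphorylates, fell from 5.18 and 4.29 CPM to 0.711 and 1.46 CPM (−2.10, SE 0.372, adjusted p = 0.0125). ECT2, an exchange factor of cytokinesis that also binds PAR6, fell from 131.9 and 135.1 CPM to 92.6 and 72.6 CPM (−0.69, adjusted p = 0.0178). In each of these genes, which were named because they passed, the groups did not overlap, as in 67% of all genes tested. Without control replicate 2 TIAM1 (0.0692) and ECT2 (0.0913) lost their call, and without control replicate 1 ECT2 (0.0718) and LIN7A (0.0563) did, and so did ECT2 (0.062) and LIN7A (0.0896) without the filter on low counts.

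Of 26 genes of dynein, dynactin and their cofactors, the pulling machine downstream of NuMA, 25 were tested. Of these 5 rose and 3 fell, against 12.4% and 12.5% of all genes tested. With the correction for GC content and length 10 rose and 6 fell, where 3992 and 3441 of all 17467 genes did. Fewer passed with either control library left out and more with either knockdown library left out. BICD2, an adaptor that loads dynein with cargo, had 90.2 and 88.6 CPM in the control group and 209.6 and 224.6 CPM in the knockdown group (log2 fold change 1.28, SE 0.0995, adjusted p = 0.00212 by edgeR). NDEL1, a partner of LIS1 in dynein regulation, rose by 1.29 (16.5 and 18.4 against 43.3 and 42.1 CPM, adjusted p = 0.0033), and DYNC1I1, the neuronal dynein intermediate chain, by 1.37 (10.1 and 13.8 against 31 and 30.9 CPM, adjusted p = 0.00591). DYNLL2, a dynein light chain, rose by 0.65 (adjusted p = 0.00796). SPDL1, which brings dynein to kinetochores, fell by 0.88 (77.2 and 76.1 against 47.4 and 36.1 CPM, adjusted p = 0.0123). The knockdown libraries of BICD2, NDEL1 and DYNC1I1 lay close together, unlike those of SAPCD2 and GPSM1. DYNLL2 did not pass without control replicate 1 (0.149) or control replicate 2 (0.105).

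Other regulators of spindle orientation were mostly lower among those that passed. Of 24 genes, 22 were tested, 1 rose and 10 fell, against 12.4% and 12.5% of all genes tested, with a median log2 fold change of −0.26. The counts were 2 and 12 with the correction for GC content and length, where 3992 and 3441 of all 17467 genes passed. Without the filter on low counts they were 1 and 5, where 1081 and 1180 of 34935 genes passed. Fewer fell with either control library left out. HMMR, a spindle protein that bears on the cortical place of dynein, fell by 1.76 (122.2 and 119.2 against 41.4 and 30 CPM, adjusted p = 0.00318 by edgeR). CIT, the citron kinase of cytokinesis, went from 110.4 and 107.0 CPM to 45.7 and 40.5 CPM (−1.33, adjusted p = 0.00263), CDK5RAP2, a centrosome scaffold, from 147.6 and 158.1 CPM to 82.3 and 65.4 CPM (−1.05, adjusted p = 0.00581), and PLK1, the mitotic kinase, from 101.0 and 100.8 CPM to 60.8 and 65.4 CPM (−0.68, adjusted p = 0.00861). HTT, which brings dynein and NuMA to the spindle, was the exception, with 157.5 and 154.7 CPM in the control group and 283.7 and 282.4 CPM in the knockdown group (0.86, adjusted p = 0.00375). PLK1 did not pass without control replicate 1 (0.0982) or control replicate 2 (0.0941).

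Several of these regulators, among them HMMR, PLK1 and CIT, are themselves made mainly in G2 and mitosis. All 16 markers of proliferation passed as lower, against 12.5% of all genes tested, with a median log2 fold change of −1.05. Without the filter on low counts 14 passed, where 1180 of 34935 genes were lower. With either control library left out all 16 kept a lower value but not all passed. Their summed level was 3893.9 and 3953.2 CPM in the control libraries and 1969.5 and 1690.4 CPM in the knockdown libraries. For example, TOP2A fell by 1.40 and PCNA by 1.14 on the log2 scale (edgeR, adjusted p = 0.00321 and 0.00243), followed by TYMS, RRM2 and MCM6 with falls of 1.21, 1.06 and 1.04. SAPCD2 (−0.91) and NUMA1 (−0.33) fell as these markers did, the value of GPSM2, which did not pass, was −0.47, and the part of proliferation in these and in the regulators above was not tested.

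**Figure D5:**
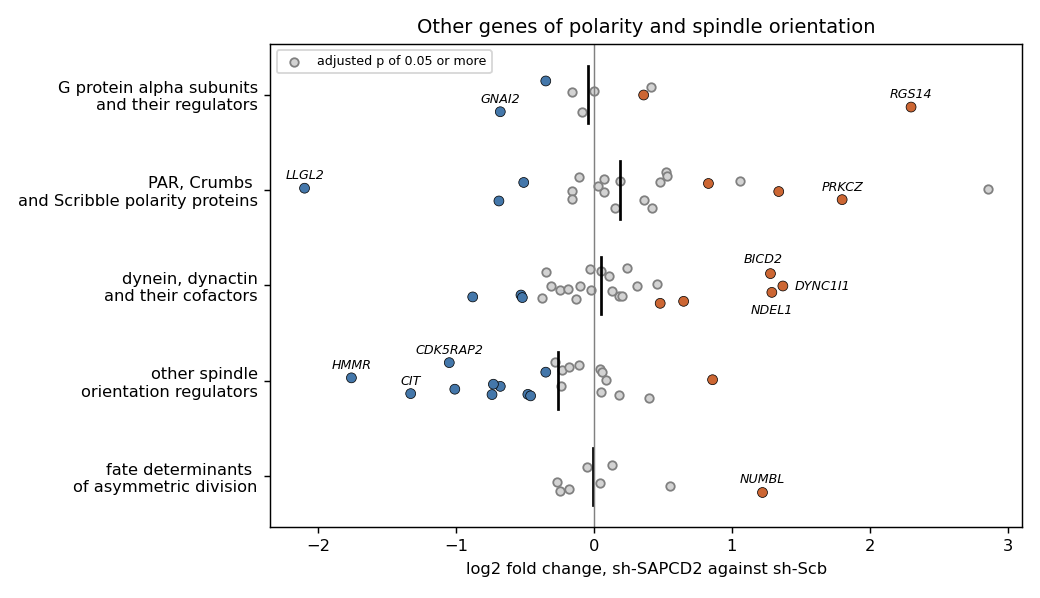
Log2 fold change of each tested gene of the 5 lists in SAPCD2-knockdown against control cells, with orange (higher) and blue (lower) points for genes that passed edgeR's test at an adjusted p under 0.05, grey points for the others and black lines for the median of a list. RGS14 (2.30) and PRKCZ (1.80) rise and LLGL2 (−2.10) and HMMR (−1.76) fall, and the 10 genes that fell among the other spindle orientation regulators stand against 1 that rose.

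Of 8 fate determinants of asymmetric division, all tested, NUMBL alone passed, where 12.4% of all genes tested were higher. With DESeq2 and with the replicate block 2 passed as higher, where 2588 and 2860 of all 18779 genes did. With the correction for GC content and length 3 did, against 3992 of 17467 genes. The counts also moved with either knockdown library left out. NUMBL, the Numb-like inhibitor of Notch, rose from 24.9 and 25.7 CPM to 52.4 and 65.3 CPM (1.22, SE 0.149, adjusted p = 0.00478 by edgeR), while its paralog NUMB had 68.6 and 74.3 CPM in the control group and 79.1 and 67.9 CPM in the knockdown group (0.04, adjusted p = 0.835). E2F7, the transcriptional repressor that the study names as a partner of SAPCD2, had 32.2 and 33 CPM in the control group and 15.2 and 11.7 CPM in the knockdown group. This was a fall of 1.28 on the log2 scale (SE 0.169, adjusted p = 0.00581 by edgeR). The study looked at E2F7 protein and reports more of it in the nucleus after SAPCD2-knockdown. The RNA level given here is a different measure and does not bear on where the protein sits. AXIN1, of the destruction complex that APC belongs to, did not pass (0.47, adjusted p = 0.0785), and SAPCD1, the closest relative of SAPCD2, was too low to test.

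The labelled cell type was checked against its markers. All 9 adrenergic neuroblastoma markers were tested, and among them MYCN rose (1.02) and DBH and ISL1 fell (−1.35 and −0.52). Their summed level was 5356.7 CPM or more in every library, and most of it was MYCN. MYCN alone had 3234.9 and 3178.2 CPM in the control group and 5904.4 and 7090.9 CPM in the knockdown group. Among the markers of other cells, SOX10 of Schwann cells, CDH1 of epithelia and PRRX1 of mesenchymal cells had 0 counts in every library. Mesenchymal markers were not absent as a group, since LUM and PDGFRB were well detected. LUM had 139.3 and 154.8 CPM in the control group and 185.2 and 134.4 CPM in the knockdown group. PDGFRB had 174.2 and 174.2 CPM in the control group and 210.0 and 231.7 CPM in the knockdown group. The summed Schwann cell markers ranged from 2.54 to 3.91 CPM in the control group and from 5.02 to 7.29 CPM in the knockdown group, the summed epithelial markers from 5.76 to 6.58 and from 6.99 to 7.96 CPM with KRT19 rising (1.40, adjusted p = 0.0406 by edgeR), and the summed mesenchymal markers from 354.2 to 373.7 and from 405.9 to 435.9 CPM with FOSL1 rising (2.36, adjusted p = 0.00717). Among the fits that left out a library KRT19 passed only without control replicate 1, and ISL1 did not pass without control replicate 1 or 2.

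Promoters of proliferation genes often carry a CHR element, a CCAAT box or an E2F site. Those of the members were searched for these, and stretches of SAPCD2 and GPSM2 are shown because only these members held both the CHR letters and the CCAAT box. RefSeq promoters (GRCh38.p14, 250 bases before to 50 after an annotated start) were matched for 8 of the 10 members, in 12 windows. On either strand the CHR letters (TTTGAA) stood in 15.2% of 35116 promoters. The CCAAT box stood in 34.6% and both in 5.9%. The E2F letters searched (TTTCCCGC, TTTGGCGC, TTTCGCGC or TTTGCCGC) stood in 3.31% of all promoters and in 0 of the 12 windows. The stretches below run 5′ to 3′ on the strand of the gene, with the matched letters in capitals.
SAPCD2 CCAAT box: ggacgggctcggCCAATggccgcggcgcat
SAPCD2 CHR letters: aggagggccccaTTCAAAagtagtcgctat
GPSM2 CCAAT box: gcgccgcccgccATTGGccggtccgaaaga
GPSM2 CHR letters: gggcgttgtcggTTTGAAtgagagcgcctg
In SAPCD2 (chr9:137070508-137070807, minus strand) the CCAAT box began 65 bases and the CHR letters 13 bases before the start. In GPSM2 (chr1:108876735-108877034, plus strand) they began 68 and 34 bases before the start. NUMA1, PARD6A and 1 window of INSC held a CCAAT box alone, and the windows of GPSM1, PRKCI and GNAI3 held neither. PARD3 and PARD6B had no entry. A match of letters is a description and not a bound site.

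The seed of the guide of sh-SAPCD2 #1 was looked for in the 3′ untranslated regions, since short matches there can lower a transcript apart from the intended target. The letters ACCTTCA stood in 1702 of 13581 tested genes with such a region (12.5%), which had a median log2 fold change of −0.04, against 0.05 in genes without them. Among the members the letters stood once each in GPSM2 and GNAI3, printed with 7 bases on either side and with the match in capitals.
GPSM2 site: atagttaACCTTCAgtagtct
GNAI3 site: aaattttACCTTCAacaaaca
The GPSM2 site is at chr1:108930062-108930082 and the GNAI3 site at chr1:109599662-109599682, both on the plus strand in hg38. GPSM2 (−0.47) and GNAI3 (−0.15), neither of which passed, had both knockdown libraries under both control libraries, as did 33.4% of all genes tested. GPSM1 and NUMA1, the partners that passed, held no such match, nor did the 3′ untranslated region of SAPCD2 itself. The seed match of sh-SAPCD2 #2, GAGATGA, stood in 14.8% of these genes (median log2 fold change −0.01, against 0.04 without it), and among the members once each in GPSM1 and GNAI3. Whether a seed match bears on the level of any member was not tested.

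No member followed the profile of SAPCD2 over the libraries closely. Likeness was measured as the Euclidean distance between log2 CPM profiles over the 4 libraries, each centred on its mean, among 15681 genes with a mean of at least 1 CPM, whose median distance to SAPCD2 was 1.10. The 5 nearest genes were PSD2 and RARRES1 at 0.05, ENSG00000253854 at 0.06, and HNRNPA3P5 and SMUG1 at 0.07. Only SMUG1, a uracil-DNA glycosylase with 26.8 and 25.3 CPM in the control group and 11.4 and 16 CPM in the knockdown group, passed the test among these (log2 fold change −0.92, adjusted p = 0.0195 by edgeR), and the other 4 had means of a few CPM. Of the members NUMA1 was nearest, at 0.69 and rank 2490, and GPSM1 was furthest, at 1.57 and rank 12818. These 4 libraries give few points, and the distances are a description with no test.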

How the data were processed

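RNA was sequenced from SK-N-BE(2) cells with sh-Scb or sh-SAPCD2, 2 libraries per group, grouped by the shRNA in the labels. Reads were mapped by the authors with HISAT2 2.2.0 on hg38 (submitters' processing notes), then quantified with StringTie, and the authors deposited whole-number counts per Ensembl gene that carry no library scaling. The step from StringTie to counts, the Ensembl release and the strand setting are not given in the sources used here, so reads of overlapping genes may be shared. Libraries held 25347900 to 31850997 counts; the 3-count floor covers counting error only.

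Of 64252 genes, 29317 had no count in any library. The counts as deposited went into edgeR 4.0.16 under R 4.3.3, with TMM normalization factors (filterByExpr, minimum count 10, minimum total 15). Its quasi-likelihood test was used with Benjamini-Hochberg adjustment over the 18779 genes tested. A prior count of 2 was used for log2 CPM values and not in this test. A gene passed at an adjusted p under 0.05, and DEGs also had an absolute log2 fold change over 1. The coefficient of biological variation was 15.4%. Positions, lengths and GC content came from GENCODE 44, which matched 17467 tested genes (93%), and promoters from RefSeq. Alternatives were DESeq2 1.42.0, which the study used, DESeq2 size factors within edgeR, library totals as the scale, no filter, a filter at a mean of 1 CPM, the replicate number as a block, loess curves per library that removed the trend with GC content and length (span 0.3, alone and with the block), and the omission of each library.

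The members, lists, tests and alternatives were chosen with earlier results of these data known. The text names the 10 members, at most 5 genes of each list that passed (by smallest p), the paralogs, and the 5 genes nearest to SAPCD2 by profile. AXIN1, SAPCD1, NUMB, CLCC1, DNLZ, IL18BP, LUM, PDGFRB, the SAPCD2 pseudogenes and markers at 0 counts were named outside this rule, after their values were seen. Some marker genes are not reported here. The fits were tested on simulated data in which every gene had the same dispersion. Of 100 genes changed by 1 on the log2 scale, edgeR recovered 66 and DESeq2 65. Of 100 genes changed by 2, each recovered all 100. Smaller changes, such as those of the members other than SAPCD2, were not simulated. Figures were drawn with matplotlib 3.10.9.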

Additional observations from a re-analysis of the deposited data

How the results depend on the processing

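The direction of SAPCD2, GPSM2, GPSM1, NUMA1, PARD3, PARD6B, PRKCI and GNAI3 was the same in 12 of 12 alternatives, and that of PARD6A in 9. The alternatives refit the same libraries, so a shared direction is no independent evidence of a change. PARD3, whose groups overlapped, also kept its direction. PARD6A reversed with the correction for GC content and length (−0.04), with that correction and the replicate block (−0.04) and without sh-SAPCD2 replicate 2 (−0.05, against 0.47 without sh-SAPCD2 replicate 1), and PARD3B (−0.15, against 0.26 without sh-SAPCD2 replicate 2) and the ratios of PARD6B to PARD6A (−0.12) and PARD3 to PARD3B (0.01) reversed without sh-SAPCD2 replicate 1. Of the 47 named genes tested, 45 kept direction and call with DESeq2, 42 with the GC correction, 38 without the filter and 36 to 42 with a library left out.

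Without the filter on low counts, 1081 genes were higher, 1180 lower and 553 DEGs higher, 7 genes of the pathway lists were lower, the value of SAPCD2 was −0.91 (adjusted p = 0.0749), and of its partners 0 were higher and 0 lower (edgeR; 1 and 1 at an unadjusted p under 0.05). DESeq2 called 2 partners lower. The GC correction called 3992 genes higher, 3 partners higher and 2 lower, and 24 pathway genes higher; with the replicate block added these were 3937, 3, 2 and 21. With lengths over all exons SAPCD2 ranked 3 among the members.

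With a library left out, the arm with a lone library is assumed to vary like the other arm, and the ranges were 1176 to 4396 genes higher, 1146 to 4014 lower, 705 to 1323 DEGs higher and 841 to 1205 lower, 0 to 2 partners higher and 0 to 3 lower, and 8 to 25 pathway genes higher and 6 to 30 lower. SAPCD2 ranged from −1.23 to −0.67. The ratio of GPSM2 to GPSM1 ranged from −1.65 to −0.59, that of PRKCI to PRKCZ from −1.80 to −1.23, that of GNAI3 to GNAI2 from 0.20 to 0.88, that of PARD6B to PARD6A from −0.12 to 0.58 and that of PARD3 to PARD3B from −0.29 to 0.01. Without either control library the partners called were 0 (edgeR; 1 higher and 0 lower at an unadjusted p under 0.05). The cause was not tested.

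The replicate numbers were not taken to pair the libraries: the labels do not say so, and deviations of same-numbered libraries correlated at −0.0188. The replicate block called 2860 genes higher and 2701 lower, NUMA1 (adjusted p = 0.11), GNAO1 and GNAI1 lost their call and GPSM2 (0.0267) and ENSG00000253854 gained one. With 2 libraries per group, a member that did not pass is not shown to be unchanged.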
